A study of Mus musculus with 4 samples.

Results

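Chromatin accessibility of 9 genes that define B cells or govern their terminal fate was followed across the cell types of mouse inguinal white adipose tissue (iWAT) and across cold exposure and treatment with CL-316,243 (CL), a β3-adrenergic agonist. The genes were *Pax5*, *Ms4a1*, *Cd79a*, *Cd79b*, *Cr2*, *Fcer2a*, *Bach2*, *Blk* and *Prdm1*, which are 9 of the 17196 protein-coding genes with a peak. They were taken by name, and the peaks of a gene were those on its body or up to 2000 bases before its start. The assay was single-nucleus ATAC-seq, in which a transposase cuts open chromatin in single nuclei, so that reads mark accessible DNA and not RNA.

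The data held 32552 nuclei of 21 male C57BL/6J mice aged 8 weeks, with 3 mice in each of 7 groups. The day0RT mice stayed at 22 °C. The day1C, day3C and day7C mice were kept at 6.5 °C for 1, 3 or 7 days, and the day1CL, day3CL and day7CL mice stayed at room temperature and received CL at 1 mg/kg for as many days. No mouse carried a transgene or a deletion in the labels, and nuclei came from the whole tissue. Nuclei positive for the DNA dye Draq7 were sorted, without a sort for cell type. The labels and methods do not say whether the inguinal lymph node was removed.

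B cells are lymphocytes that make antibodies and sense antigen through the B cell receptor, a surface immunoglobulin that signals through the CD79A and CD79B chains. The transcription factor PAX5 holds B lineage identity by turning on B cell genes and repressing those of other lineages. BACH2 holds back differentiation into plasma cells, and PRDM1 (BLIMP-1) drives it. Both of these last factors also act in T cells, where BACH2 favours resting states and PRDM1 accompanies effector differentiation. In adipose tissue, B cells lie among stromal and immune cells and in lymphoid clusters, and lymph nodes can be embedded in the depot.

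The sequences below come from 6 stretches of DNA that the results turn on. The promoters of *Cd79a* and *Cr2* are shown because, of the RefSeq promoters near a member's start, these held a motif match. The *Pax5* intron is the strongest intron peak in B cells whose window is clear of any annotated exon. The window of the stronger peak at +5978 bases overlaps an exon of the full annotation. The *Bach2* and *Prdm1* introns were taken by the ratio of the mean levels in B cells and CD4 T cells, highest among the *Bach2* intron peaks that led in B cells and lowest among intron peaks that led in T cells with at least 20 CPM. Capitals mark exact matches to a consensus on either strand, CAGGTG for the E-box of E2A (also CACCTG) and GAGGAAGT for PU.1 (also ACTTCCTC). Strings without capitals held none of the 6 motifs searched. The promoters come from the RefSeq table on GRCm38.p6. The *Cr2* stretch, chr1:195176720-195176969 on the minus strand, lies directly upstream of the RefSeq start. The *Cd79a* stretch, chr7:24897247-24897380 on the plus strand, ends directly before the GENCODE start, 116 bases short of the RefSeq start, because an annotated exon follows. The intron windows are the central 300 bases of a peak on GRCm38 (mm10). They lie at chr4:44672730-44673029 on the minus strand in *Pax5*, at chr4:32555666-32555965 and chr4:32291506-32291805 on the plus strand in *Bach2*, and at chr10:44443822-44444121 on the minus strand in *Prdm1*.
Cd79a promoter: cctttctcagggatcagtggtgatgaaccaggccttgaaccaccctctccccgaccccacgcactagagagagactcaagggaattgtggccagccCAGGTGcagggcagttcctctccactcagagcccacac
Cr2 promoter: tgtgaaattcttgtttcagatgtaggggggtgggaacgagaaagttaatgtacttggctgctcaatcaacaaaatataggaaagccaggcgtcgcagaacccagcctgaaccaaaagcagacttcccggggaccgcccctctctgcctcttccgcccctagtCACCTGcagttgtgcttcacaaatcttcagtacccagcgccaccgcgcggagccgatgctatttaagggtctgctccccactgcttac
Pax5 intron, open in B cells: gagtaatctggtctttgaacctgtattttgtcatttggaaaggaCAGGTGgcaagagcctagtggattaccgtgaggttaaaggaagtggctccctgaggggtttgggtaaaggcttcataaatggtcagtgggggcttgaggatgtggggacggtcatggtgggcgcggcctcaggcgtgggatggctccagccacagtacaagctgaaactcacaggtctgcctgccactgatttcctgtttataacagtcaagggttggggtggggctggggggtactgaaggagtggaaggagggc
Bach2 intron, open in B cells: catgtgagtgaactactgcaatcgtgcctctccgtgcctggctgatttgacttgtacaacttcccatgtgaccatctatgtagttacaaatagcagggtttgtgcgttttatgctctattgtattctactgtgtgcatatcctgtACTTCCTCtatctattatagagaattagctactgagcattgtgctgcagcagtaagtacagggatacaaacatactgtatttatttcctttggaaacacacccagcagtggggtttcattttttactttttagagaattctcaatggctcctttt
Bach2 intron, open in T cells: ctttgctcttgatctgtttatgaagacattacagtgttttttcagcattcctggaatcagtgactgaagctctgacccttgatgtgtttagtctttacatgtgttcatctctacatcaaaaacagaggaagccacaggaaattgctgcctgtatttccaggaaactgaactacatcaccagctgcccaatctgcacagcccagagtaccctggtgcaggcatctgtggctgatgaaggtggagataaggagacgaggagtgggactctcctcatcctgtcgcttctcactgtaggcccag
Prdm1 intron, open in T cells: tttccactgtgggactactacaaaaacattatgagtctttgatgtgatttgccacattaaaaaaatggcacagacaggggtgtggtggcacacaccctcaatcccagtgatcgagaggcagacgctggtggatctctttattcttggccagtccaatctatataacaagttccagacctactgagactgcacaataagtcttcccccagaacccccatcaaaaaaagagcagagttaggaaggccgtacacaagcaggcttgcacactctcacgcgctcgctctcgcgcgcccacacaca

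The B cell cluster, as annotated by the authors, was the largest of 12, with 11967 nuclei (36.8% of all) and a median of 974 counts per nucleus, where 1 count is 1 nucleus with reads in 1 peak. The other B cell markers *Cd22*, *Ebf1*, *Fcmr*, *Pou2af1* and *Cd37* were each highest in it, and 0 of 7 T cell markers were. *Ebf1* was nearly as open in white adipocytes, where its CPM, explained below, was 1023 against 1121 in B cells. A library below is the sum over the B nuclei of 1 mouse. Libraries held 66 to 860 nuclei, with 43731 to 1468357 counts on genes, and both libraries under 200 nuclei came from CL-treated mice. These were day1CL replicate 3 with 66 nuclei, 5.94% of that mouse's nuclei, and day3CL replicate 2 with 154 nuclei, 12.4% of its nuclei. Of the 32-base barcodes, 4218 occurred in more than 1 mouse, all of them between mice with the same treatment and number on different later days, and none were shared with day 0. The labels do not say which mice were processed together. A batch that differed by day could not be told apart from the day in the comparisons with day0RT, while CL against cold on the same day lies within a day.

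Of the 9 genes, 7 had their highest mean level in B cells, and *Bach2* and *Prdm1* had theirs in CD4 T cells. Levels are the CPM of the gene (its counts scaled to the library's counts on all genes), as mean ± SD over mice with at least 10 nuclei of the cell type. Clusters had been made from these same peaks, so the order of cell types is a description and was not tested.

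*Cd79a* (ENSMUSG00000003379, chr7:24897381-24902197) and *Cd79b* (ENSMUSG00000040592, chr11:106311341-106314762) encode the signalling chains of the B cell receptor. *Cd79a* stood at 167 ± 23.4 CPM in B cells (n = 21 mice) and at 50.1 ± 21.5 in CD4 T cells (n = 20), the next cell type. The T cell level lay mostly outside the promoter. Promoter peaks, those within 2000 bases of the start, held 67.3% of the *Cd79a* counts in B cells and 24.6% in CD4 T cells. The remaining peak, 4702 bases past the start, also counts for the neighbouring *Arhgef1*, and its level was 47.8 CPM in B cells and 33.0 in CD4 T cells (the CPM of a single peak is scaled to counts on all peaks). *Cd79b* stood at 130 ± 31.6 CPM in B cells and at 43.2 ± 28.1 in VSMCs (vascular smooth muscle cells, n = 10), and the B cell level was higher in 8 of those 10 mice. The VSMC level rests on 19 counts in all, with 0 to 6 in a library. The exceptions were day1CL replicate 3 and day3CL replicate 2, where the VSMC values of 90.1 and 67.5 CPM rest on 1 count each. *Blk* (ENSMUSG00000014453, chr14:63372836-63417037) encodes a Src-family kinase that acts below the receptor. It stood at 205 ± 26.5 CPM in B cells and at 89.97 ± 44.9 in APC1, a cluster of adipocyte progenitors (n = 20). A single intron peak, 7564 bases past the start, reached 30.3 CPM in APC1 and 1.98 in B cells.

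Another 3 members encode surface proteins of mature B cells. *Ms4a1* (ENSMUSG00000024673, chr19:11249675-11266241) encodes CD20, a membrane protein of mature B cells, and stood at 132 ± 19.6 CPM in B cells and 20.5 ± 28.9 in macrophages (n = 21). *Cr2* (ENSMUSG00000026616, chr1:195136811-195176716) encodes complement receptors that lower the threshold of the B cell receptor, and stood at 88.05 ± 13.3 CPM in B cells. Its next level, 18.2 ± 48.4 CPM in VECs (vascular endothelial cells, n = 15), had an SD larger than its mean. *Fcer2a* (ENSMUSG00000005540, chr8:3681737-3694175) encodes CD23, the low-affinity IgE receptor of follicular B cells, and stood at 130 ± 16.5 CPM in B cells and 22.7 ± 24.9 in dendritic cells (n = 17). For all 3 genes the values of the next cell types overlapped between mice and reached 0, so the neighbours in the order below B cells did not differ beyond their spread.

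*Pax5* (ENSMUSG00000014030, chr4:44524757-44710487) was separated from all other cell types, since every B cell library lay above every library of another type. Its level in B cells was 717 ± 46.8 CPM, with a lowest mouse at 638, a median of 722 and a highest at 803. The next cell type, dendritic cells, stood at 118 ± 48.4 CPM (n = 17), and the highest single library outside B cells was an APC1 library at 304 CPM. Pooled over mice, *Pax5* contributed 45.8% of the 21904 counts on the 7 genes that were highest in B cells.

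*Bach2* and *Prdm1* were ordered differently. *Bach2* (ENSMUSG00000040270, chr4:32238804-32586108) stood at 1381 ± 104 CPM in CD4 T cells, 1220 ± 130 in CD8 T cells, 904 ± 189 in other T cells and 789 ± 61.9 in B cells. Its B cell level was below that of CD4 and of CD8 T cells in all 20 mice with both, and above that of other T cells in 2 of 20. *Prdm1* (ENSMUSG00000038151, chr10:44437177-44528501) stood at 229 ± 43.9 CPM in CD4 T cells, 216 ± 60.7 in other T cells, 203 ± 33.2 in CD8 T cells and 168 ± 30.9 in B cells. These levels overlapped between mice, and B cells were the higher in 7 of 20 mice against CD8 T cells, 4 of 20 against other T cells and 2 of 20 against CD4 T cells. Restricting the count to promoter peaks put B cells first for both genes, at 269 ± 42.5 CPM for *Bach2* and 142 ± 39.7 for *Prdm1*. These CPM are scaled to the library's counts on promoter peaks alone, so they are not comparable with the levels above. Scaled to counts on all peaks, the *Bach2* start peak had a mean of 138 CPM in B cells and 131 in CD4 T cells. The *Prdm1* peak at -1174 bases had 54.3 in B cells and 50.7 in dendritic cells. All 9 genes were then highest in B cells.

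**Figure D1:**
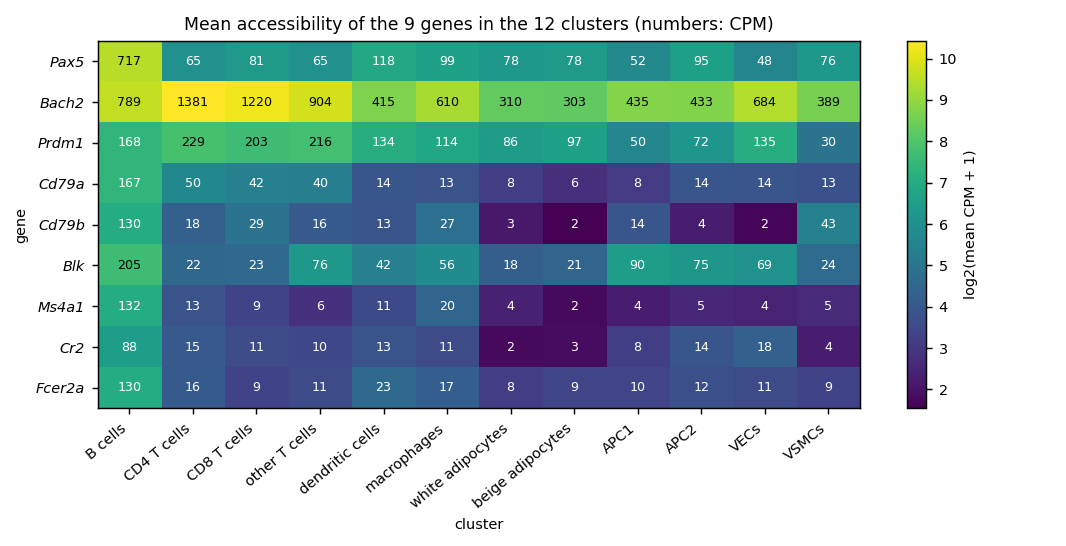
Mean level of each gene (rows) in the 12 annotated cell types (columns), with the colour showing log2(CPM + 1) and the number in each cell the mean CPM over mice. The B cell column is the highest for *Pax5* and the receptor and surface genes, and the CD4 T cell column for *Bach2* (1381 CPM) and *Prdm1* (229 CPM).

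Per kilobase of peak, counted over the peaks of a gene from all cell types, *Cd79b* had the highest B cell level. It stood at 140 CPM per kilobase, *Cd79a* at 127, *Ms4a1* at 108.5 and *Cr2* at 88.2. *Pax5* stood at 55.5 CPM per kilobase, *Fcer2a* at 48.9 and *Blk* at 35.2. *Prdm1* at 19.0 and *Bach2* at 18.4 were lowest, and *Bach2* had the most peak sequence, 42.8 kilobases in 86 peaks. Peaks that lead in other cell types lower this value, and most *Bach2* and *Prdm1* peaks were of that kind. The order therefore also depends on which peaks a gene has.

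The 9 genes held 155 peaks, of which 45 (29.03%) were highest in B cells, against 6.94% of all 189598 peaks. These shares follow from how the genes and clusters were chosen and carry no test. Every peak of *Ms4a1* (2), *Cd79a* (3), *Cd79b* (2), *Cr2* (2) and *Fcer2a* (5) was highest in B cells. The longer genes were mixed. *Pax5* had 15 of 27 peaks highest in B cells, *Blk* 7 of 13, *Prdm1* 2 of 15 and *Bach2* 7 of 86, and 35 *Bach2* peaks and 6 *Prdm1* peaks were highest in 1 of the T cell clusters.

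*Bach2* was about as open at its start in B cells as in CD4 T cells, and it differed inside the gene in both directions. The peak at the start stood at 140 ± 22.2 CPM in B cells and 131 ± 22.3 in CD4 T cells, and was higher in B cells in 13 of 20 mice. The intron peak 52851 bases downstream, whose T cell sequence is printed above, stood at 3.7 ± 2.3 CPM in B cells and 73.3 ± 22.4 in CD4 T cells, and was higher in CD4 T cells in all 20 mice. The groups did not overlap, since the highest B cell library was at 7.95 CPM and the lowest CD4 T cell library at 46.2. Peaks at +97113 and +149443 bases were also lower in B cells in every mouse, with 24.2 ± 8.61 against 79.5 ± 16.5 CPM and 19.6 ± 4.16 against 54.9 ± 13.5 CPM. Other introns went the opposite way. At +10467 bases, B cells stood at 40.7 ± 9.36 CPM and CD4 T cells at 18.5 ± 10.2, and B cells were higher in all 20 mice. At +162892 bases the levels were 29.1 ± 7.33 and 5.78 ± 4.89 CPM, and B cells were higher in 19 of 20. The B cell intron printed above, at +317011 bases, stood at 14.5 ± 5.60 CPM in B cells and 2.93 ± 3.35 in CD4 T cells, and held the PU.1 match. These 3 introns were also open in other cell types. CD8 T cells stood at 28.9 CPM at +10467 bases, dendritic cells at 15.4 at +162892 and macrophages at 10.8 at +317011. The start peak held 20.03% of the *Bach2* counts in B cells, 10.8% in CD4 T cells and 9.41% in CD8 T cells.

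For *Prdm1*, the levels of B cells and CD4 T cells overlapped near the gene start, and the means of the 2 intron peaks below were lower in B cells. The peak centred at -1174 bases, upstream of its start, stood at 55.04 ± 17.7 CPM in B cells and 44.98 ± 14.6 in CD4 T cells, and was higher in B cells in 15 of 20 mice. A second transcript starts at the peak 69706 bases downstream, where both cell types were alike, at 33.95 ± 7.92 and 34.7 ± 14.7 CPM. The intron peak at +80492 bases was lower in B cells in all 20 mice, at 19.3 ± 6.29 against 54.2 ± 16.0 CPM. The peak at +84530 bases, printed above, stood at 1.50 ± 4.39 CPM in B cells and 20.5 ± 17.8 in CD4 T cells. There the CD4 T cell libraries ranged from 0 to 82.6 CPM. The highest was day1CL replicate 3, a library of 16 nuclei and 12111 counts on peaks. The CD4 T cell mean leaned on that library and passed the 20 CPM limit for printing narrowly, and CD8 T cells stood at 9.45 CPM. Promoter peaks held 47.96% of the *Prdm1* counts in B cells and 25.7% in CD4 T cells.

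The *Pax5* peaks above 30 CPM in B cells lay between the peak just upstream of its start and the peak at +42851 bases. Its strongest peak, 5978 bases past the start, reached 97.9 ± 16.1 CPM in B cells. The intron printed above, at +37608 bases, followed at 85.5 ± 12.6 CPM, then the peaks at +39052 and +29953 bases at 75.3 ± 13.9 and 67.9 ± 13.4 CPM. The upstream peak centred 500 bases before the start stood at 66.5 ± 18.4 CPM. In CD4 T cells these 5 peaks stood between 4.58 and 8.99 CPM, and in dendritic cells the peak at +39052 bases reached 31.7 CPM. From +132984 bases onward no *Pax5* peak exceeded 10 CPM in B cells.

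**Figure D2:**
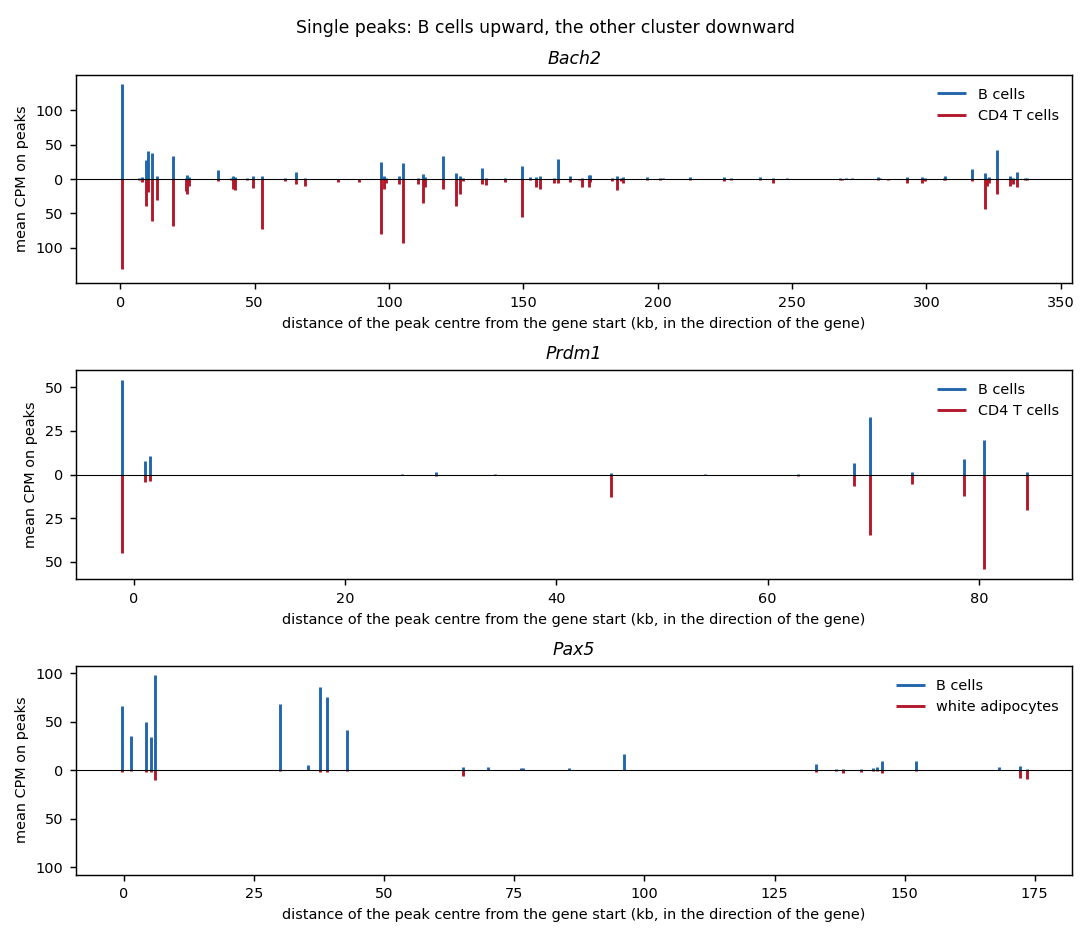
Mean level of every peak of *Bach2*, *Prdm1* and *Pax5*, in CPM over counts on all peaks, against the distance of its centre from the gene start in kilobases, with B cells drawn upward and CD4 T cells (*Bach2*, *Prdm1*) or white adipocytes (*Pax5*) drawn downward. *Bach2* and *Prdm1* have intron peaks long in CD4 T cells and short in B cells, and the tall *Pax5* peaks of B cells lie near the start.

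Sequence motifs were counted as exact matches on both strands in the central 300 bases of each peak. The E-box CAGGTG of E2A, a factor that starts the B lineage, was found in 35.6% of the 45 peaks highest in B cells and in 16.65% of all peaks, with 23.9% over all 155 member peaks. The core CCCNNGGG of EBF1, a B lineage factor, was found in 20% and 11.2%, but in 10.3% of the 155 member peaks, below the share of all peaks. PU.1 (GAGGAAGT) was found in 13.3% and 4.86%, and the octamer ATGCAAAT of OCT factors in 8.89% and 1.79%, with 7.74% and 3.23% over the 155. NF-kB (GGGNNTTCC) was found in 8.89% and 6.23%, and RUNX (TGTGGTTT) in 2.22% and 3.72%, with 6.45% and 2.58% over the 155. A match is a description of the letters, and 45 peaks of 9 genes are few. RefSeq promoter sequence was at hand for 6 genes (*Pax5*, *Cd79a*, *Cr2*, *Fcer2a*, *Bach2* and *Prdm1*). In the 250 bases upstream, *Cd79a*, *Cr2* and *Prdm1* each held 1 E-box, a motif found in 17.2% of 32851 promoters, *Bach2* held 1 NF-kB match (4.98% of promoters), and *Pax5* and *Fcer2a* held none of the 6. For *Bach2* and *Prdm1* the RefSeq start lies 178631 and 69753 bases inside the gene used here.

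Across the mean levels of the 12 cell types, the genes nearest to each member were taken by Pearson correlation, as a description over points that share libraries. *Pax5* was nearest to *Fcer2a* (r = 0.926), *Gpr142* (0.920) and *Klhl14* (0.908). *Ms4a1* was nearest to *Gpr142* (0.945), *Ciita* (0.934), the activator of MHC class II genes, and *Dennd6a* (0.933). *Fcer2a* was nearest to *Ms4a1* (0.931), *Klhl14* (0.929) and *Pax5*. *Cd79a* was nearest to *Rnf41* (0.964), *Brox* (0.954) and *Cpsf6* (0.953), and *Cd79b* to *Psma8* (0.921), *Knl1* (0.917) and *Vipas39* (0.911). *Cr2* was nearest to *Sp140* (0.947), *Tsnax* (0.937) and *Tceanc* (0.922), and *Blk* to *Fam43a* (0.903), *Myo1e* (0.898) and *Fam167a* (0.861). All of these were highest in B cells. *Bach2* was nearest to *Spice1* (0.976), *Dgka* (0.972) and *Prr7* (0.969), and *Prdm1* to *Selenoh* (0.973), *Ermp1* (0.970) and *Cog2* (0.967), and these 6 were highest in a T cell cluster.

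The comparison of the treated groups with day0RT asked whether accessibility at these genes changed in B cells during beiging. In edgeR's quasi-likelihood test with Benjamini-Hochberg adjustment over 11502 genes, none of the 9 genes passed an adjusted p of 0.05 in any of 9 contrasts. Of the 81 differences, 9 had an unadjusted p under 0.05, beside 4.85% to 16.5% of all genes tested in a contrast, and the smallest adjusted p was 0.136. DESeq2 also called 0, with a smallest adjusted p of 0.278 among genes it gave one. The largest estimated changes were a 0.706-fold level of *Cd79b* in day3CL against day0RT and a 1.24-fold level of *Fcer2a* in day3CL against day3C. The 95% intervals of all 81 log2 differences lay between -0.80 and 0.57, and those of *Pax5* between -0.43 and 0.22. They are not adjusted for the number of tests, and those of the 9 differences with an unadjusted p under 0.05 left out 0. For each gene and contrast, changes inside its own interval could not be told apart. In bulk sums of this kind, a change in which B cells were present and a change in accessibility per nucleus cannot be told apart.

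Read against the background of all genes, these zeros are not particular to the 9 genes. Against day0RT, the share of genes called was 0.574% in day1C, 0% in day3C, 0.0174% in day7C, 2.68% in day1CL, 0% in day3CL and 1.36% in day7CL. Between CL and cold it was 0.0609% for the mice of day 1, 0% for day 3 and 0.217% for day 7. The 3 contrasts with 0 genes called had 823 genes (day3C), 746 genes (day3CL) and 558 genes (day3CL against day3C) at an unadjusted p under 0.05. In the test of any difference among the 7 groups, 0 of 9 genes and 2.08% of all genes passed. *Cd79b* had the smallest adjusted p there, 0.154, and *Cd79a* followed at 0.252. Without day3CL replicate 3, *Cd79b* alone passed, with an adjusted p of 0.033.

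The differences nearest to the threshold fell on day1CL. *Pax5* stood at 777, 788 and 731 CPM in the day0RT mice and at 638, 664 and 640 in the day1CL mice, so the groups did not overlap, and the log2 difference was -0.25 ± 0.094 (SE, edgeR p = 0.00985, adjusted p = 0.139). *Bach2* stood at 757, 849 and 831 CPM in day0RT and at 664, 768 and 640 in day1CL, with overlap, and its log2 difference was -0.20 (adjusted p = 0.254). *Cd79b* stood at 143, 146 and 162 CPM in day0RT and at 148.8, 98.3 and 68.6 in day1CL, with overlap, and the value of 68.6 rests on 3 counts in the 66-nucleus library. Its log2 difference was -0.35 ± 0.16 (SE, edgeR p = 0.0276, adjusted p = 0.226), and it moved to -0.68 without day1CL replicate 1, to -0.13 without day1CL replicate 2 and to -0.015 over nuclei with at least 2000 counts. Day1CL replicate 3 entered that last fit with 2 nuclei. The *Cd79a* contrast was that of day1CL and day1C. It stood at 220, 179 and 201 CPM in the day1C mice and at 153, 128 and 206 in the day1CL mice, where the value of 206 rests on 9 counts in the 66-nucleus library. The log2 difference was -0.50 ± 0.15 (SE, edgeR p = 0.00136, adjusted p = 0.136), and it was -0.53 without the 2 libraries under 200 nuclei, an alternative chosen after seeing the data. In day1CL against day0RT, 7 of 9 genes had a negative log2 difference, with a median of -0.22 beside a median of -0.01 over all genes tested. *Fcer2a* (0.21) and *Prdm1* (0.03) were positive and did not pass the test. For *Fcer2a*, the day1CL mice stood at 140 to 160 CPM and the day0RT mice at 114 to 132, without overlap. The share of all genes with a negative difference here, or with groups that did not overlap, was not counted.

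*Cd79b* had the lowest value on day 3 of CL. It stood at 143, 146 and 162 CPM in the day0RT mice and at 90.6, 38.2 and 125 in the day3CL mice, so every day3CL mouse was below every day0RT mouse. The value of 38.2 rests on 5 counts in the 154-nucleus library. The log2 difference was -0.50 ± 0.14 (SE, edgeR p = 0.000488, adjusted p = 0.387). It was -0.93 without day3CL replicate 3 and -0.42 without day3CL replicate 2, and neither passed the test. *Fcer2a* lay the other way on that day, at 166, 107 and 141 CPM in day3CL and 114, 106 and 132 in day3C, with overlap (log2 difference 0.31, adjusted p = 0.997).

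On day 7, no member had an unadjusted p under 0.05 against day0RT or between CL and cold. *Pax5* stood at 690 ± 23.7 CPM in day7C and 708 ± 47.2 in day7CL, beside 766 ± 30.2 in day0RT. Over all 9 contrasts, the folds of *Pax5* lay between 0.843 and 1.04 and those of *Bach2* between 0.843 and 1.03. *Prdm1* lay between 0.890 and 1.17, *Ms4a1* between 0.843 and 1.18, *Blk* between 0.848 and 1.17 and *Cr2* between 0.789 and 1.13. The smallest edgeR adjusted p among these 6 genes was 0.139, for *Pax5* in day1CL.

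**Figure D3:**
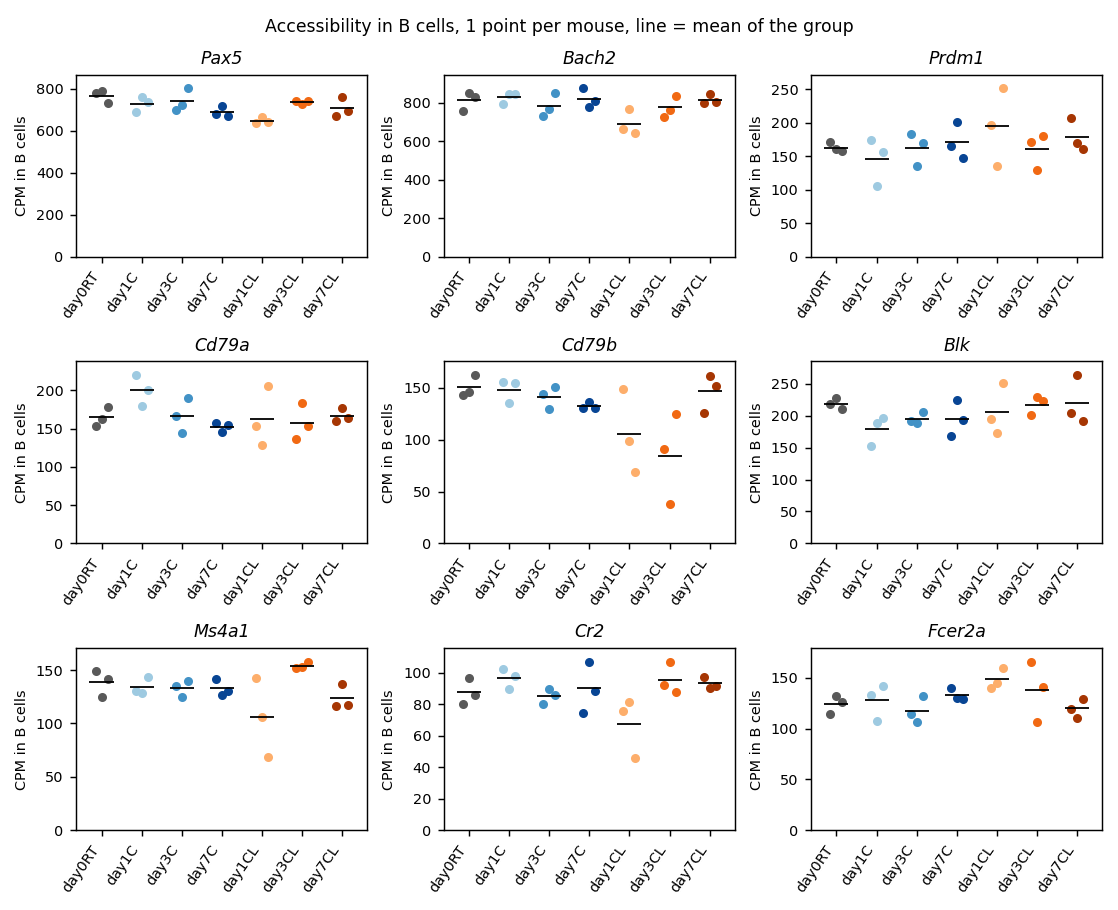
Level of each of the 9 genes in B cells, in CPM, in the 21 mice by group, with 1 point per mouse and a line at each group mean. Every treated group overlaps day0RT for *Cr2*, *Bach2* and *Prdm1*, and each other gene has at least 1 treated group that does not. How many of all genes have such a group was not counted. The day1CL mice lie below the day0RT mice for *Pax5*, and *Cd79b* has its lowest mean in day3CL.

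**Figure D4:**
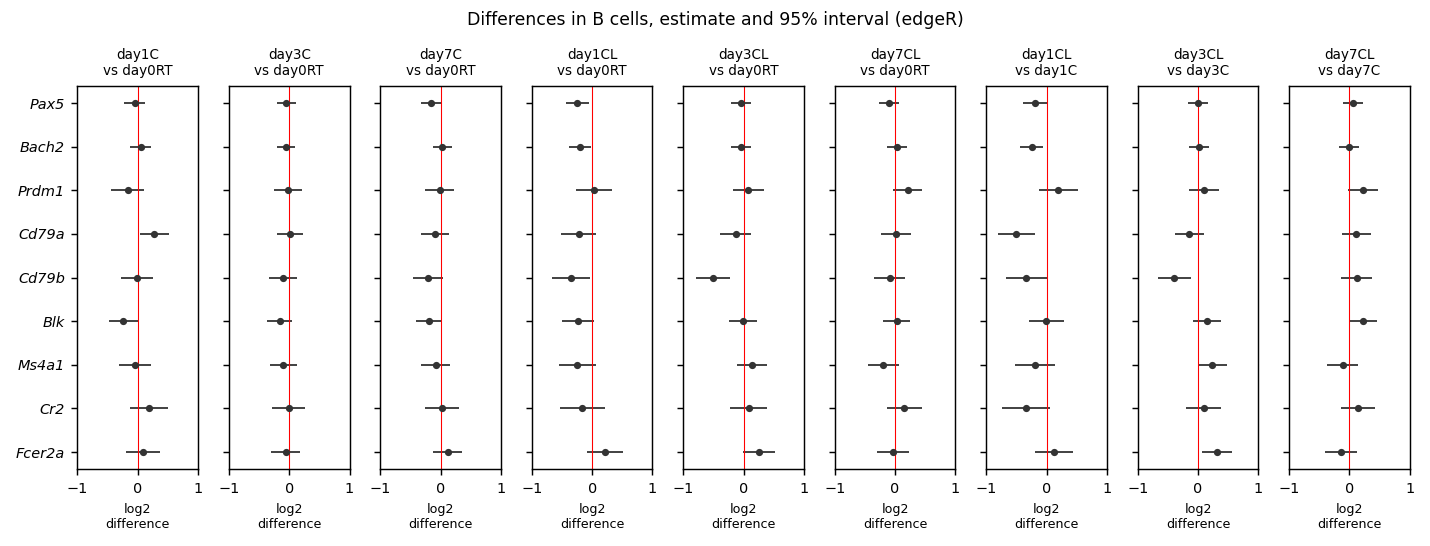
Estimated log2 difference in B cells for the 9 genes in the 9 contrasts, with 95% intervals from edgeR. All estimates lie between -0.50 and 0.31, and no difference passed the adjusted threshold.

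Single elements of the genes gave the same count. Of the 155 member peaks, 41 passed the filter on low counts in B cells, and 0 of these were called for any difference among the groups, beside 0.314% of the 21628 peaks tested. Of the 41, 3 had an unadjusted p under 0.05, as did 1920 of the 21628. The smallest belonged to the peak at the start of *Cd79b* (edgeR p = 0.00504, adjusted p = 0.290).

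The other genes of the pathway, 64 in all, were grouped into 6 lists. Of 14 coreceptors and signalling proteins of the B cell receptor, 11 were highest in B cells, led by *Pik3ap1* (643 ± 53.8 CPM), *Blnk* (354 ± 44.6) and *Syk* (343 ± 38.7). Of 14 B lineage transcription factors, 7 were, led by *Ebf1* (1121 ± 79.7 CPM), and of 12 homing and survival receptors 6 were, led by *Cxcr5* (436 ± 34.3 CPM). Of 8 plasma cell genes with a peak, *Irf4* and *Mzb1* were highest in B cells. Of 8 germinal centre genes, *Mef2b* and *Rgs13* were. Of 9 B-1 and marginal zone genes, *Mzb1* alone was. Over all 16845 genes with at least 5 CPM in a cell type, 10.9% were highest in B cells.

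Of the 61 list genes tested in B cells, 2 were called for any difference (beside 2.08% of all genes), 2 in day1CL (2.68%), 1 in day7CL (1.36%) and 0 in the other 7 contrasts. *Syk*, the kinase that the receptor recruits, was lower in day1CL, with 404, 379 and 411 CPM in day0RT and 259, 278 and 389 in day1CL. The third day1CL value lay within the day0RT range and rests on 17 counts. Its log2 difference was -0.55 ± 0.12 (SE, edgeR adjusted p = 0.00196, DESeq2 adjusted p = 0.0298), and the adjusted p was 0.095 without day1CL replicate 1. The median log2 difference of the 14 receptor genes in that contrast was -0.22. *Syk* was also below day0RT in the other treated groups, with log2 differences from -0.35 in day7C to -0.17 in day7CL, and passed in none. It passed in no contrast of CL with cold. *Zbtb20*, a transcription factor listed with B-1 and marginal zone genes, rose in day1CL (log2 difference 0.55 ± 0.14, SE, edgeR adjusted p = 0.0104) and in day7CL (0.43 ± 0.12, adjusted p = 0.0394). *Zbtb20* was far more open in white adipocytes, at 1278 ± 104 CPM against 182 ± 44.3 in B cells. It did not pass with DESeq2 (adjusted p = 0.141 in day1CL and 0.361 in day7CL). Its call in day1CL was lost without day0RT replicate 1 (adjusted p = 0.089) or day1CL replicate 1 (0.328), and that in day7CL without day0RT replicate 1 (0.292), day0RT replicate 3 (0.0836) or day7CL replicate 1 (0.690).

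Markers of other cell types were measured in the same B cell libraries. The summed level of 7 adipocyte markers, most of it *Adipoq*, had group means of 53.7 CPM in day0RT (44.3 to 69.8 over mice) and 102 in day1C (82.6 to 124), without overlap. Its means were 67.4 CPM in day1CL and 61.8 in day7CL. The summed level of 6 macrophage markers, most of it *Mrc1*, was 116 CPM in day0RT (103 to 126 over mice). It was 162 in day1CL (127 to 206) and 139 in day7CL (129 to 149.3), without overlap with day0RT in either. That of 4 plasmacytoid dendritic cell markers, most of it *Tcf4*, was 610 CPM in day0RT (602 to 614), 657 in day1CL (549 to 718) and 691 in day7CL (672 to 709), without overlap on day 7. That of 7 T cell markers lay between 203 and 260, and that of 7 lymph node stroma markers between 7.89 and 13.3. Over all mice, *Adipoq* stood at 46.0 CPM in B cells and 153 in white adipocytes. The other adipocyte markers stood between 3.02 and 4.49 CPM in B cells. *Mrc1* stood at 82.8 CPM in B cells and 112 in macrophages. Of the plasmacytoid dendritic cell markers, *Tcf4* was highest in VECs, *Runx2* in CD8 T cells and *Ly6d* in B cells themselves. *Siglech* stood at 1.37 CPM in B cells and was highest in macrophages. The sum of these markers therefore does not stand for 1 cell type. The part of these markers in the *Syk* and *Zbtb20* differences was not tested.

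The other abundant cell types were tested for any difference among the 7 groups, for those members that passed the filter on low counts. In CD4 T cells 0 of 4 members were called (0.052% of all genes), in macrophages 0 of 3 (0% of all genes, with 188 of 3553 genes at an unadjusted p under 0.05) and in other T cells 0 of 3 (0.0172%). In CD8 T cells 1 of 5 was called (0.125%), and in white adipocytes 1 of 4 (10.8%), and both were *Pax5*. *Bach2* and *Prdm1* were tested in all 5 cell types and called in none. The edgeR adjusted p nearest to the threshold was 0.111 for *Prdm1* in white adipocytes and 0.177 for *Bach2* in CD8 T cells.

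*Pax5* counts in white adipocytes were spread over its peaks in other proportions than in B cells. Its level there was 77.6 ± 21.6 CPM (n = 21, 1534 counts in all). The 12 *Pax5* peaks that were not highest in B cells held 54.8% of these counts, and 4.68% of the *Pax5* counts in B cells. The other 15 peaks held 694 of the adipocyte counts. Peaks were classed by the mean levels of these same cell types, so a lower share in B cells is partly built in and carries no test. The peaks 172188 and 173468 bases past the start, near the end of the gene, held 13.95% and 15.6% of the adipocyte counts against 0.618% and 0.289% in B cells. The peak over a coding exon at +65073 bases held 10.7% against 0.449%. The peak at +5978 bases held similar shares, 15.3% and 15.8%.

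Between day0RT and day1CL, the mean *Pax5* level in white adipocytes differed mainly on those same 12 peaks. The test below covers the whole gene, and the 2 sets of peaks were not tested separately. The level stood at 129, 85.6 and 89.0 CPM in the day0RT mice and at 29.0, 57.2 and 43.0 in the day1CL mice, without overlap. The other groups had means between 68.6 CPM in day1C and 94.5 in day7CL (any difference, edgeR adjusted p = 0.000772, DESeq2 0.018). Over the 12 peaks the group mean was 63.6 CPM in day0RT and 10.5 in day1CL. Over the 15 peaks highest in B cells it was 37.6 and 32.6 CPM, and it ranged from 26.5 in day7C to 45.3 in day3C. In the day1CL mice the 12 peaks held 0, 2 and 21 counts. The first 2 day1CL libraries were small, with 23 and 63 nuclei and 1 and 9 *Pax5* counts. Without day1CL replicate 3, the one with 559 nuclei, the adjusted p was 0.0937, and leaving out any other mouse kept the call.

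*Cd79a* had 175 counts over the 21 white adipocyte libraries, of which 43.4% lay on promoter peaks, and it did not pass the filter on low counts. It stood at 0, 0 and 0.896 CPM in the day1CL mice, where 1 count was seen in all, at 4.78, 7.44 and 1.24 in day0RT and at 11.6, 11.4 and 26.7 in day1C, so these 3 groups did not overlap. Without the filter, the edgeR adjusted p for any difference was 0.00442. It passed the filter in only 9 of the 21 fits that left out 1 mouse, and was called in each of those. In the remaining fits it was not tested, so these calls depend on the filter. The *Cd79a* counts off the promoter lay on the peak at +4702 bases, which also counts for *Arhgef1*. The part of that peak in the difference was not tested.

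In CD8 T cells the *Pax5* level had group means from 50.8 ± 12.9 CPM in day7C to 108 in day3CL, where 2 mice had enough nuclei (any difference, 20 libraries, edgeR adjusted p = 0.0204). The day7C mice stood at 41.1, 65.4 and 45.8 CPM and the day0RT mice at 72.2, 150 and 97.9, without overlap. The day1CL mice stood at 109, 51.2 and 0 CPM. The 12 peaks that were not highest in B cells held 15.4% of the CD8 T cell counts, against 54.8% in white adipocytes. The call was lost with DESeq2 (adjusted p = 0.9998) and without day3C replicate 3 (0.076), day3CL replicate 3 (0.123), day7C replicate 1 (0.119), day7C replicate 3 (0.171) or day7CL replicate 2 (0.067). In CD4 T cells the adjusted p of *Pax5* was 0.0851, and with the mouse number as a replicate block it was 0.017, which passed. It passed in 6 of 20 fits that each left out 1 mouse, with adjusted p between 0.0194 and 0.0426, and these were day0RT replicate 2, day1CL replicate 2, day3C replicate 2, day3CL replicate 1, day7C replicate 2 and day7CL replicate 1.

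Whether the B cell genes in other cell types followed the share of B cells in the tissue was asked across mice. The counts of the 7 genes highest in B cells were summed in each of 5 cell types and set against the percentage of the mouse's nuclei annotated as B cells, with 100000 permutations and adjustment over the 5 cell types. In white adipocytes r was 0.03 (adjusted permutation p = 0.875) and Spearman's rho -0.08 (0.915), and r was -0.29 without the 2 mice farthest from the median share. In CD4 T cells r was 0.42 (adjusted permutation p = 0.334) and rho -0.09 (0.915), and r was -0.34 without the 2 farthest mice. CD8 T cells had an r of 0.18 (0.526) and a rho of -0.02 (0.951), and other T cells an r of 0.28 (0.399) and a rho of 0.08 (0.915), and without the 2 farthest mice these r were -0.047 and -0.099. In all 4 cell types r was thus negative without its 2 farthest mice. These were taken within each cell type and were not the same pair throughout. Day3CL replicate 2 had 4, 9 and 8 nuclei in CD4, CD8 and other T cells and was left out there. Day1CL replicate 3, the mouse with the lowest B cell share, had 16, 33 and 17 nuclei in them. None of these 4 relations passed the test.

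Macrophages had an r of 0.34 and a rho of 0.34 over 21 mice (adjusted permutation p = 0.334 and 0.639), and r was 0.42 without the 2 farthest mice. Within groups, after each value was centred on its group mean, r was 0.49 (adjusted permutation p = 0.0342), with 17 of 21 mice on the same side of both means. The sums are sparse, since all 21 macrophage libraries together held 386 counts on the 7 genes. Within groups, white adipocytes had an r of -0.08 (adjusted permutation p = 0.807) and the 3 T cell clusters lay between 0.24 and 0.43 (0.698 each).

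**Figure D5:**
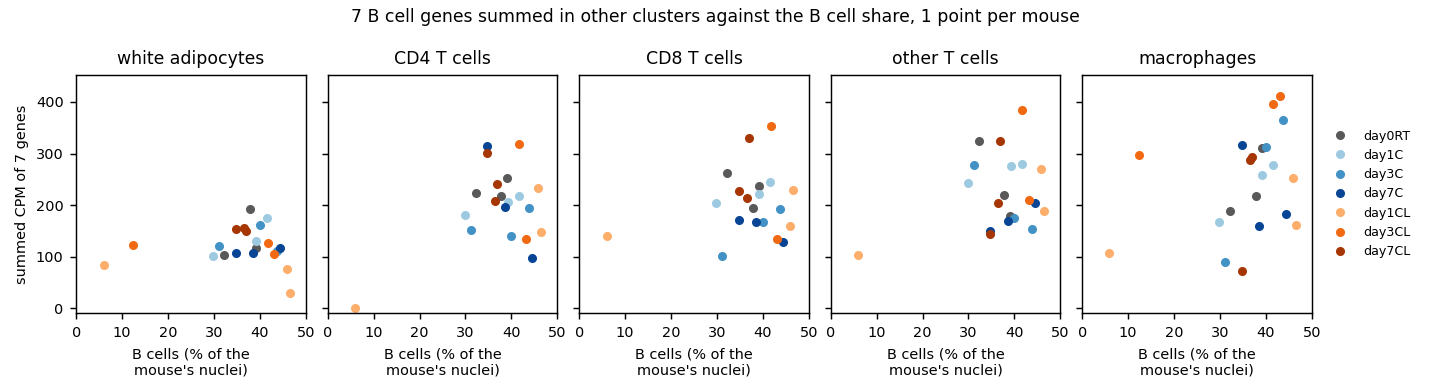
Summed level of the 7 genes highest in B cells, in CPM, in white adipocytes, macrophages and the 3 T cell clusters, with 1 point per mouse coloured by group, against the percentage of that mouse's nuclei annotated as B cells. Points scatter widely in every panel, and the day1CL mouse with the lowest B cell share (5.94%) lies far left.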

How the data were processed

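The authors aligned reads of 2 sequencing runs to mm10 with Bowtie2, sorted them with SAMtools, removed duplicates with Picard, called peaks with MACS2 on clusters of pooled nuclei, removed doublets scored with Scrublet, and clustered and named nuclei in Signac. The deposited matrix of counts (189598 peaks by 32552 nuclei) is binary, with 65588856 ones and 145 stored zeros, so a sum counts nuclei with reads in a peak, and widely open peaks are flattened. Mouse, group and cell type came from the deposited table of nuclei, because the 4 samples in GEO are lanes without a group. No per-sample column was left unused.

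Here, entries were summed per gene (GENCODE vM21, gene body plus 2000 bases upstream), mouse and cell type, for sums of at least 10 nuclei. Genes without a peak were left out. Groups were compared with edgeR 4.0.16 in R 4.3.3 (quasi-likelihood, TMM factors, filterByExpr, two-sided, Benjamini-Hochberg over all genes within a contrast, threshold 0.05), with all groups of a cell type in 1 fit, and with DESeq2 1.42.0 as the other tool. Python 3.11.15, numpy 2.4.6, pandas 2.3.3 and scipy 1.17.1 served for sums, motifs and permutations. The steps were tested on simulated data. GEO names no versions for the authors' tools. The mice are separate animals. Intervals come from the edgeR fit, in which the spread between mice is estimated partly from the other genes.

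The members and lists were chosen with earlier results of these data known. Named genes are the 9 members, for each the 3 genes most correlated with it over the 12 cell types (log2(CPM + 1), at least 5 CPM in a cell type, no peak in common), list genes called in a contrast and up to 3 a list with the highest B cell level. Mouse numbers were not taken to pair mice, because deviations from group means correlated between -0.097 and 0.087 over 63 same-numbered pairs, none above 0.1. Same-numbered mice share 1 set of barcode index values and the study names 3 batches, but the sources used here do not say that a number marks a batch, and the replicate block stands as an alternative. Alternatives were DESeq2, no filter, no TMM factors, promoter peaks only, peaks of 1 gene only, nuclei with at least 2000 counts, other library minimums, 2 groups per fit, a replicate block and leaving out each mouse. The values of 1 marker gene are not reported here.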

Additional observations from a re-analysis of the deposited data

How the results depend on the processing

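The 9 members in B cells kept a count of 0 called in all 9 contrasts and under every alternative. In the test of any difference, leaving out 1 mouse gave 0 to 1 members. Replicate numbers used as a replicate block changed 1 count among the members, raising CD4 T cells from 0 to 1 (*Pax5*, adjusted p = 0.017). In CD8 T cells, leaving out 1 mouse gave 0 to 1 members, and DESeq2 and promoter peaks only each gave 0 in place of 1. White adipocytes gave 2 without the filter on low counts, *Pax5* and *Cd79a*, and 0 to 2 when 1 mouse was left out, and CD4 T cells 0 to 1. Of the list genes in B cells, day1CL had 2 called, with 1 under DESeq2, 4 without the filter, 0 with nuclei of at least 2000 counts, 1 with promoter peaks only and 0 to 2 without 1 mouse. For day7CL, with 1 called, DESeq2, no filter, nuclei of at least 2000 counts, peaks of 1 gene only, fits of 2 groups and promoter peaks only each gave 0, and leaving out 1 mouse gave 0 to 2. For day7CL against day7C, leaving out 1 mouse gave 0 to 2 in place of 0, with 2 without day7CL replicate 3. For any difference, with 2 called, DESeq2 gave 1, nuclei of at least 2000 counts 1, promoter peaks only 0 and leaving out 1 mouse 1 to 3. The r with the B cell share turned to -0.0815 for white adipocytes when centred on groups and to -0.12 for CD8 T cells with promoter peaks only. For macrophages it passed the test only when centred on groups (0.49). Leaving out 1 mouse moved r between -0.245 and 0.513 in CD4 T cells, -0.0348 and 0.249 in CD8 T cells, -0.11 and 0.34 in other T cells, -0.18 and 0.22 in white adipocytes and 0.17 and 0.49 in macrophages. The cause of these changes was not tested.

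Over all genes in B cells, any difference called 239 genes, 43 with DESeq2, 29 with promoter peaks only and 7 with nuclei of at least 2000 counts, where 7875 genes were tested. Libraries of 66 and 154 nuclei limit day1CL and day3CL, and leaving both out, an alternative chosen after seeing the data, changed no count of members called. Binary entries limit what widely open peaks can show.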
